A study of Rattus norvegicus with 25 samples.

Results

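ER lumenal chaperones and co-chaperones were described here through 10 genes, Hspa5, Hsp90b1, Hyou1, Calr, Canx, Dnajb9, Dnajb11, Dnajc3, Sdf2l1 and Creld2, which were chosen by their known function. The rule held no measured value, but earlier results of these data were known when the genes were chosen. All probe sets whose only gene symbol is one of these were taken, 13 of 31042 probe sets, or 10 of 14217 genes. The RNA came from 7 stable transfectants of the McArdle-RH7777 cell, which derives from a rat hepatoma and secretes apoB lipoproteins, and was hybridized to 25 Affymetrix rat genome arrays. The Sar1B:H79G group had 2 lines with 4 arrays each, the Sar1B group 2 lines with 4 arrays each, the Sar1A group a single line (4 arrays), and the control group 2 lines with 2 and 3 arrays. Sar1 is the small GTPase that starts the COPII coat, the coat of the vesicles that carry cargo out of the ER, and the H79G form cannot hydrolyze GTP. The study used these lines to ask how Sar1 forms alter gene expression in cells that export apoB lipoproteins.

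The lines expressed human Sar1 proteins with a FLAG tag at the carboxyl end from a tetracycline-inducible vector, and the control lines carried the vector without an insert. All lines, controls included, also carried the tetracycline repressor, grew in blasticidin and Zeocin, and had 1 µg/ml tetracycline for 24 h before harvest. A line stands for a single stable transfectant, so that clonal differences and the expressed protein cannot be told apart in a group of 1 line and are averaged over 2 lines in the other groups.

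The ER lumen holds a set of chaperones that fold secretory proteins and keep unfolded ones from leaving. Hspa5, also called BiP or GRP78, is the Hsp70 chaperone of the ER, and it works with J-domain proteins that hand it substrates and with exchange factors that release its ADP. When unfolded proteins build up, the sensors Atf6, Ern1 and Eif2ak3 start the unfolded protein response (UPR), and Atf6 and Xbp1 raise transcription of chaperone genes through the ER stress response element (ERSE) in their promoters. In hepatocytes, these chaperones handle a large flow of plasma proteins, apoB among them.

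The promoter windows of RefSeq, on the GRCr8 build, hold 250 bases before and 50 bases after each annotated start, and all 10 genes had a window (Hyou1 had 2). The windows were searched on both strands for the ERSE, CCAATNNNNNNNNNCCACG, and for the ERSE-II, ATTGGNCCACG, which is a shorter relative of it. The ERSE was found in Hspa5, Hsp90b1, Calr, Canx, Dnajc3 and Creld2 and the ERSE-II in Hyou1 and Dnajb11, so that 8 of 10 genes held one or the other. Over all 33469 rat windows the share with an ERSE was 0.0657% and the share with an ERSE-II 0.0508%. The core of the UPR element, TGACGTGG, was found in Hyou1 alone, where it overlaps the upstream ERSE-II, and in 0.595% of all windows. Only this exact form was searched, and the Hspa5 window holds the letters tgacgtga, which differ from it in the last base. The CCAAT box, which is also a part of both elements, was in 37.5% of windows and in all 10 genes. A match describes the letters of the window and was not tested as a binding site.

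The elements are shown with up to 15 bases on each side, read 5′ to 3′ on the strand of the gene, because they are the sequence feature that most of these genes share. Capitals mark the ERSE or ERSE-II. Calr, Creld2 and the downstream element of Hsp90b1 hold it on the opposite strand, as do both elements of Hyou1.
Hspa5 (chr3:38452958-38453006, plus strand): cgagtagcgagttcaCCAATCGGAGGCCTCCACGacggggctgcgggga
Hsp90b1, upstream (chr7:23012436-23012484, minus strand): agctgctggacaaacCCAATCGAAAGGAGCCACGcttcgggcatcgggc
Hsp90b1, downstream (chr7:23012332-23012380, minus strand): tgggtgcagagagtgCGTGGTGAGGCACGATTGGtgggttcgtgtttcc
Hyou1, upstream (chr8:53602679-53602719, plus strand): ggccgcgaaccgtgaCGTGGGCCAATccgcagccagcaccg
Hyou1, downstream (chr8:53602779-53602819, plus strand): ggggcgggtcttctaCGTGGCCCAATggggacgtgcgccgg
Calr (chr19:40213120-40213168, plus strand): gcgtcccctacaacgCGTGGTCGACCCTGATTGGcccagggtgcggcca
Canx (chr10:35158054-35158102, minus strand): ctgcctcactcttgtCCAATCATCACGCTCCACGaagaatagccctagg
Dnajb11 (chr11:91672800-91672825, minus strand): atgtcccaggcggcgATTGGCCCACG
Dnajc3 (chr15:102432519-102432567, plus strand): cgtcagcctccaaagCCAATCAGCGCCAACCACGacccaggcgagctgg
Creld2 (chr7:121789224-121789272, plus strand): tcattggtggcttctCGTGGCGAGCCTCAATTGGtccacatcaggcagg

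Dnajb9 and Sdf2l1 held neither element. Dnajb9 had a single CCAAT box, and in the stretch from its first base over the length of an ERSE (chr6:67002095-67002113, minus strand), with the box in capitals, only 2 of the 5 closing bases were those of the ERSE.
Dnajb9: CCAATggggaagcgtttcg
Sdf2l1 had 4 CCAAT boxes, and at most 3 of the 5 closing bases matched at any of them.

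**Figure D1:**
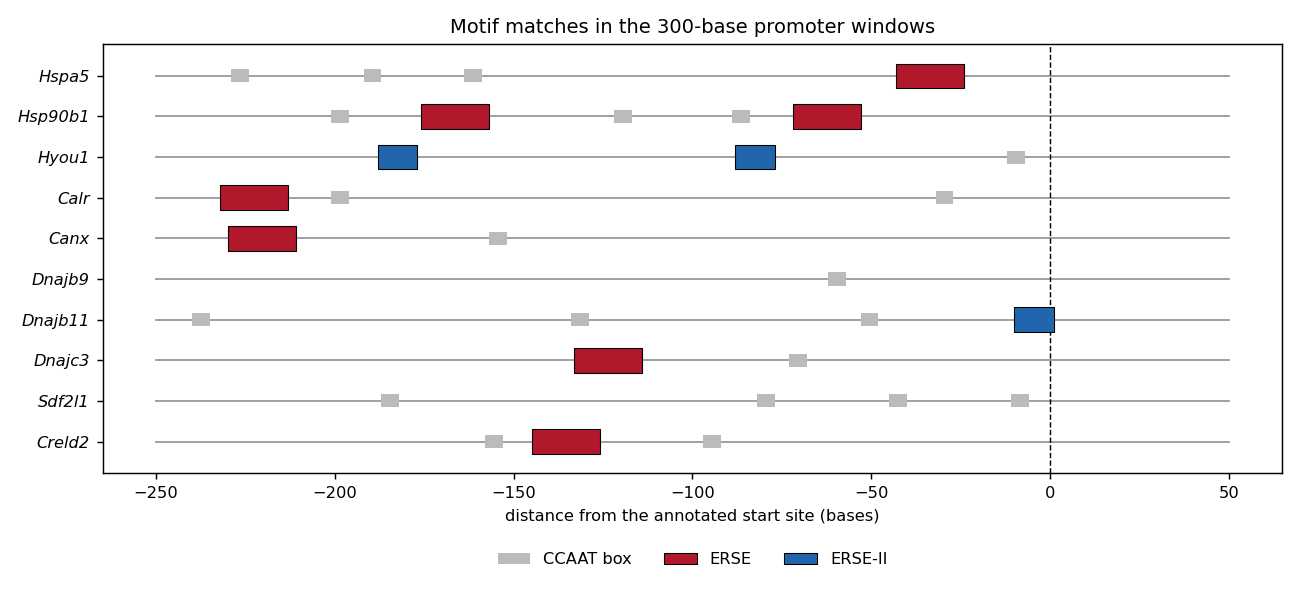
Positions of CCAAT boxes (grey), ERSE (red) and ERSE-II (blue) matches on either strand in the promoter windows of the 10 genes (for Hyou1, the first of 2 windows), as distance from the annotated start in bases. An ERSE or ERSE-II is drawn for 8 genes, and Dnajb9 and Sdf2l1 show CCAAT boxes only.

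The deposited values were normalized log2 signals, the log base being inferred from their range, and array medians ran from 8.10 to 8.16. Pairs of arrays correlated at a median of 0.995 within a line and of 0.991 across the lines of a group. By the start of the array names, the control arrays form one series and all arrays of Sar1 lines another, and for every comparison with control this series and the empty vector cannot be told apart. For the poly-A spikes, 5′ minus 3′ signal averaged -0.79 in Sar1B:H79G, -0.78 in Sar1B, -0.84 in Sar1A and -1.69 in control lines. The comparisons of Sar1B:H79G with Sar1B and Sar1A lie within 1 series. The study reports more recombinant Sar1 in its Sar1A lines than in the Sar1B:H79G and Sar1B lines, with the wider gap to Sar1B. In these comparisons the expressed form and its amount therefore cannot be told apart. Of the hepatocyte markers, 10 of 10 measured lay above the median probe set and 8 above the 90th percentile, whereas 1 of 6 fibroblast, 0 of 6 macrophage and leukocyte, 0 of 4 endothelial and 1 of 3 cholangiocyte markers lay above the median. The rat Sar1a probe set read 12.75 and 13.01 in the lines labelled Sar1B:H79G, 12.05 and 11.46 in Sar1B, 13.10 in Sar1A and 11.47 and 11.31 in control lines. Its log2 fold change in Sar1B:H79G against control was 1.49 (standard error 0.20, adjusted p = 0.0058), whereas that of rat Sar1b was -0.19 (standard error 0.08, adjusted p = 0.13). In Sar1B against control rat Sar1b was at -0.09 (standard error 0.08, adjusted p = 0.45). Whether these rat probes read the human inserts is not known, so they do not check the expressed forms. By RT-qPCR the study found more Sar1a mRNA in Sar1B:H79G than in control cells, and it also found more Sar1a protein.

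All 13 chaperone probe sets were bright, between the 78.3rd and the 99.3rd percentile of all probe sets. The brightest probe set stood for its gene, the arrays of a line were averaged, and the 7 line means were fitted in limma. A gene was called where its p-value, adjusted after Benjamini-Hochberg over all 31042 probe sets, was under 0.05. Few of the ER chaperones passed this test in the Sar1B:H79G lines. Against control, 2 of 10 genes, Hspa5 and Dnajb9, were called higher and 0 lower, beside 13.4% of all genes called higher and 10.6% called lower, and the share of the 10 genes, 20%, was within 1 gene of that background. Their median log2 fold change was 0.10, beside 0.02 for all genes. Against Sar1B the same genes, Hspa5 and Dnajb9, were called higher and 0 lower, beside 4.90% of all genes higher and 7.18% lower, with a median of 0.09 beside 0.01. Against Sar1A only Dnajb9 was called, beside 1.98% of all genes higher and 2.22% lower.

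For the native Sar1 forms 1 call was made in all with the brightest probe set of each gene. In Sar1B against control 1 of 10 genes, Calr, was called higher and 0 lower, beside 4.72% of all genes higher and 2.01% lower. In Sar1A against control limma called 0 of 10, with 1 at an unadjusted p under 0.05, beside 0.865% of all genes, and in Sar1A against Sar1B it called 0 of 10, again with 1 at an unadjusted p under 0.05, beside 0.00703% of all genes. The counts of the 3 comparisons with control share the same control lines.

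**Figure D2:**
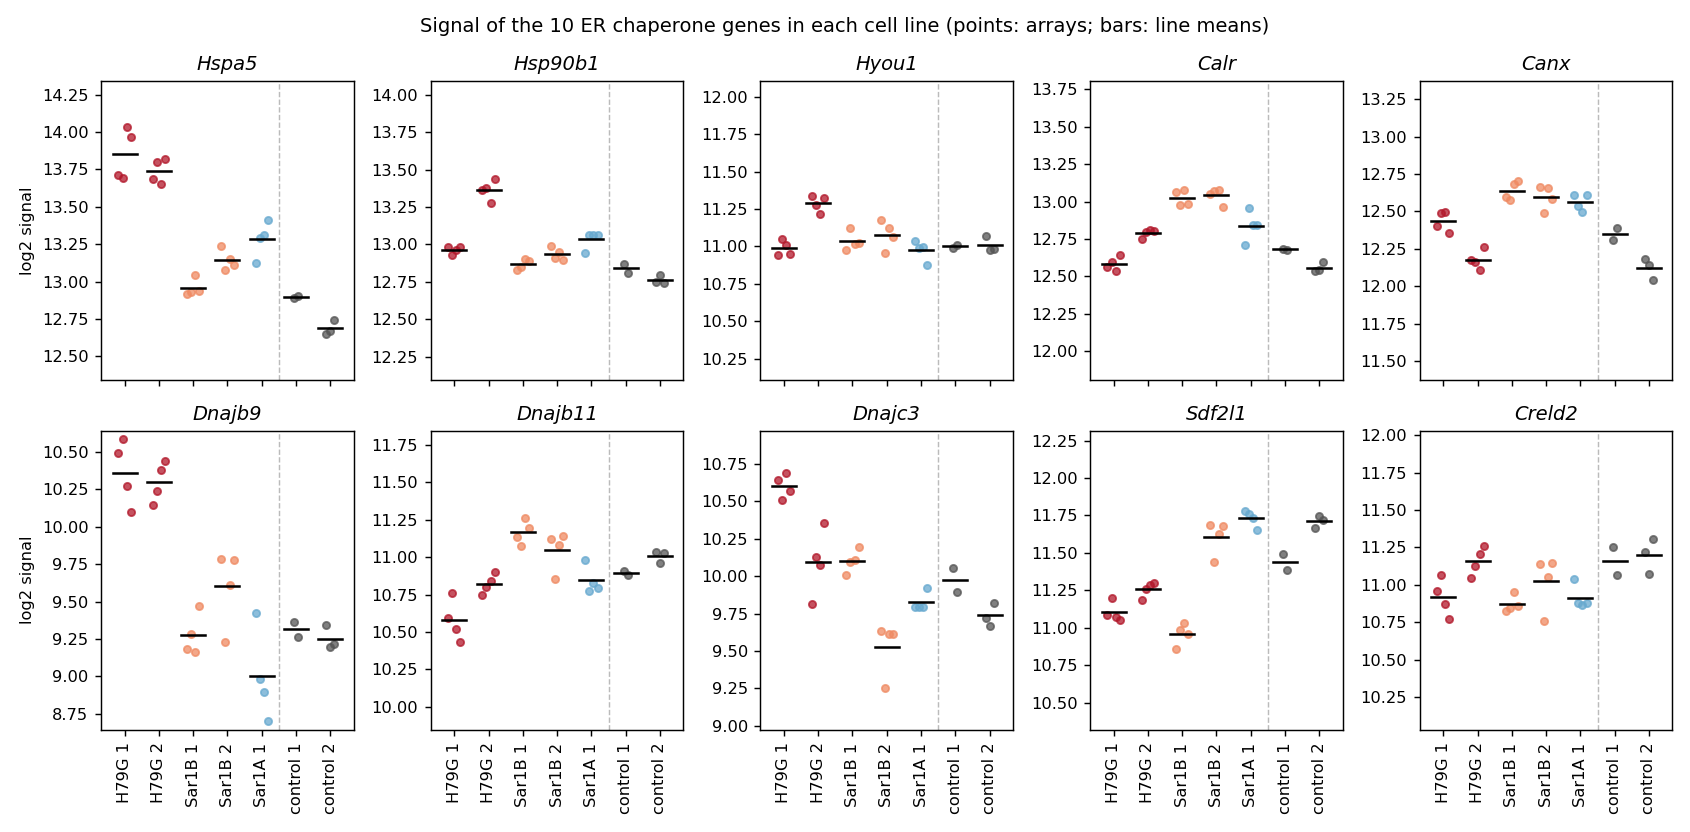
log2 signal of the representing probe set of each gene in the 7 lines (points, arrays; black bars, line means; red, Sar1B:H79G; orange, Sar1B; blue, Sar1A; grey, control; H79G 1 and 2 are the Sar1B:H79G lines), each panel spanning the same range of 2 log2 units. The dashed line parts the array series; all Sar1B:H79G arrays lie above all other arrays for Hspa5 and Dnajb9, and for no other gene shown.

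Hspa5, the Hsp70 chaperone that binds exposed hydrophobic stretches and holds the UPR sensors inactive, was the clearest riser together with Dnajb9. Its log2 signal (probe set 1370283_at) was 13.85 and 13.74 in the Sar1B:H79G lines, 12.96 and 13.14 in the Sar1B lines, 13.28 in the Sar1A line and 12.90 and 12.69 in the control lines. All 8 Sar1B:H79G arrays lay above all arrays of the other 3 groups. Group means were 13.80 ± 0.08 in Sar1B:H79G, 13.05 ± 0.13 in Sar1B and 12.79 ± 0.15 in control (SD, n = 2 lines each). The log2 fold change was 1.00 against control (standard error 0.10, adjusted p = 0.0031), a 2-fold rise, and 0.74 against Sar1B (standard error 0.10, adjusted p = 0.012), a 1.68-fold rise. In such bulk samples more cells with a transcript and more of it per cell cannot be told apart. Against Sar1A it was 0.51 (standard error 0.13, 95% confidence interval 0.20 to 0.82), which was not called (adjusted p = 0.11). The native forms lay between these groups. The Sar1A line was 0.49 above control (standard error 0.13, adjusted p = 0.11) and the Sar1B lines were 0.26 above control (standard error 0.10, adjusted p = 0.16), neither called, although no array of either group overlapped the control arrays.

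Dnajb9, also called ERdj4, is a J-domain protein that brings Hspa5 to unfolded substrates and to the sensor Ern1. Its probe set 1387116_at read 10.36 and 10.30 in the Sar1B:H79G lines, 9.28 and 9.60 in the Sar1B lines, 9.0 in the Sar1A line and 9.32 and 9.25 in the control lines. The Sar1B:H79G arrays stood apart from all others, and the lowest line was Sar1A. Group means were 10.33 ± 0.04 in Sar1B:H79G, 9.44 ± 0.23 in Sar1B and 9.28 ± 0.04 in control (SD, n = 2 lines each). The log2 fold change was 1.05 against control (standard error 0.11, adjusted p = 0.0033), 0.89 against Sar1B (standard error 0.11, adjusted p = 0.0086) and 1.33 against Sar1A (standard error 0.14, adjusted p = 0.012), a rise of 2.07-fold, 1.86-fold and 2.51-fold. The call against Sar1A was lost when either control line was left out of the shared fit, with the value again 1.33. Those fits called a smaller share of all probe sets. The native forms did not pass the test, with 0.15 for Sar1B (standard error 0.11, adjusted p = 0.40) and -0.28 for Sar1A (standard error 0.14, adjusted p = 0.28), both against control. Dnajb9 is one of the 2 genes without an ERSE or ERSE-II in the window, and Hspa5 is one of the 8 with such an element.

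The remaining J-domain proteins did not pass the test in either direction. Dnajc3, also called p58IPK, aids Hspa5 in the ER and is known as an inhibitor of the kinase Eif2ak3. Its signal (probe set 1370073_at) was 10.60 and 10.09 in the Sar1B:H79G lines, 10.10 and 9.53 in the Sar1B lines, 9.83 in the Sar1A line and 9.98 and 9.74 in the control lines. The lines of a group differed by 0.51 in Sar1B:H79G, 0.57 in Sar1B and 0.24 in control, line 1 being the higher in each, and the second Sar1B:H79G line lay level with the first Sar1B line. Against control the log2 fold change was 0.49 (standard error 0.24, 95% confidence interval -0.08 to 1.07, adjusted p = 0.18) and against Sar1B it was 0.53 (standard error 0.24, 95% confidence interval -0.04 to 1.11, adjusted p = 0.27). Without the first Sar1B:H79G line these were 0.24 (adjusted p = 0.57) and 0.28 (adjusted p = 0.73), and without the second 0.75 (adjusted p = 0.093) and 0.79 (adjusted p = 0.14).

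Dnajb11, also called ERdj3, binds unfolded substrates directly and passes them to Hspa5. Probe set 1389308_at read 10.58 and 10.82 in the Sar1B:H79G lines, 11.17 and 11.05 in the Sar1B lines, 10.85 in the Sar1A line and 10.90 and 11.01 in the control lines. Both Sar1B:H79G lines lay below every other line. Its log2 fold changes were -0.25 against control (standard error 0.10, adjusted p = 0.12) and -0.41 against Sar1B (standard error 0.10, adjusted p = 0.066), and neither passed the threshold. Without the first Sar1B:H79G line they were -0.13 (adjusted p = 0.45) and -0.28 (adjusted p = 0.19), and without the second -0.37 (adjusted p = 0.061) and -0.53, the last of which was called lower (adjusted p = 0.041).

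Hsp90b1, also called GRP94, is the Hsp90 chaperone of the ER and folds a narrow set of clients such as integrins and Toll-like receptors. Its signal (probe set 1388331_at) was 12.97 and 13.36 in the Sar1B:H79G lines, 12.87 and 12.94 in the Sar1B lines, 13.03 in the Sar1A line and 12.84 and 12.76 in the control lines. The Sar1B:H79G arrays did not overlap the control arrays, but the second line alone stood well above the Sar1A line and the first lay below it. Hsp90b1 was 0.36 above control on the log2 scale (standard error 0.13, 95% confidence interval 0.04 to 0.68, adjusted p = 0.095) and 0.26 above Sar1B (standard error 0.13, adjusted p = 0.34). These values rested on the second Sar1B:H79G line. Without it they were 0.16 against control (adjusted p = 0.25) and 0.06 against Sar1B (adjusted p = 0.81), and without the first line 0.56 (adjusted p = 0.016) and 0.46 (adjusted p = 0.042), both called. After quantile normalization the value against control was 0.09 (adjusted p = 0.70).

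Calr (calreticulin) and Canx (calnexin) are the lectin chaperones that hold glycoproteins by their monoglucosylated sugar, the first soluble in the lumen and the second bound to the membrane. Calr (probe set 1398750_at) read 12.59 and 12.79 in the Sar1B:H79G lines, 13.03 and 13.04 in the Sar1B lines, 12.84 in the Sar1A line and 12.68 and 12.56 in the control lines. The Sar1B lines were the highest, and no Sar1B array overlapped a Sar1B:H79G or control array. Calr was called higher in Sar1B against control, by 0.41 (standard error 0.09, adjusted p = 0.046). With the brightest probe set of each gene, this was the sole call among the 10 genes for a native Sar1 form. Dimmer probe sets of Hyou1 and Canx were called there too, as given below. The call was lost without any 1 of the Sar1B or control lines, with values of 0.35 to 0.48. Those fits leave 1 line in a group and called a smaller share of all probe sets. After quantile normalization the call was lost too, with 0.21 (adjusted p = 0.18). Against Sar1B, Sar1B:H79G had a log2 fold change of -0.35 (standard error 0.09, 95% confidence interval -0.56 to -0.13, adjusted p = 0.073), and against control 0.07 (standard error 0.09, adjusted p = 0.61).

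Canx read 12.44 and 12.18 with its brightest probe set in the Sar1B:H79G lines, 12.64 and 12.60 in the Sar1B lines, 12.56 in the Sar1A line and 12.35 and 12.12 in the control lines. The order of the groups was that of Calr, with the Sar1B lines on top and the Sar1B:H79G and control lines overlapping. For Canx the log2 fold change was 0.07 in Sar1B:H79G against control (standard error 0.11, adjusted p = 0.68), 0.38 in Sar1B against control (standard error 0.11, adjusted p = 0.090) and -0.31 in Sar1B:H79G against Sar1B (standard error 0.11, adjusted p = 0.18).

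Sdf2l1 and Creld2 are small ER proteins that are themselves UPR targets, the first a partner of Dnajb11 and the second a putative disulfide isomerase. Sdf2l1 (probe set 1373043_at) read 11.10 and 11.26 in the Sar1B:H79G lines, 10.96 and 11.61 in the Sar1B lines, 11.73 in the Sar1A line and 11.44 and 11.71 in the control lines. The Sar1B lines differed from each other by 0.65, the widest gap between lines of a group for any of the 10 genes, and the Sar1B:H79G arrays lay below all control arrays. In Sar1B:H79G the log2 fold change of Sdf2l1 was -0.40 against control (standard error 0.21, 95% confidence interval -0.92 to 0.12, adjusted p = 0.22) and -0.10 against Sar1B (standard error 0.21, adjusted p = 0.88).

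Creld2 (probe set 1377016_at) read 10.92 and 11.16 in the Sar1B:H79G lines, 10.87 and 11.02 in the Sar1B lines, 10.91 in the Sar1A line and 11.16 and 11.20 in the control lines. The Sar1B:H79G arrays overlapped those of each other group, whereas the Sar1A arrays lay below all control arrays. On the log2 scale Creld2 differed in Sar1B:H79G by -0.14 against control (standard error 0.10, adjusted p = 0.34) and by 0.09 against Sar1B (standard error 0.10, 95% confidence interval -0.15 to 0.34, adjusted p = 0.73). The native forms stood at -0.23 for Sar1B (adjusted p = 0.19) and -0.26 for Sar1A (adjusted p = 0.26) against control, neither called.

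**Figure D3:**
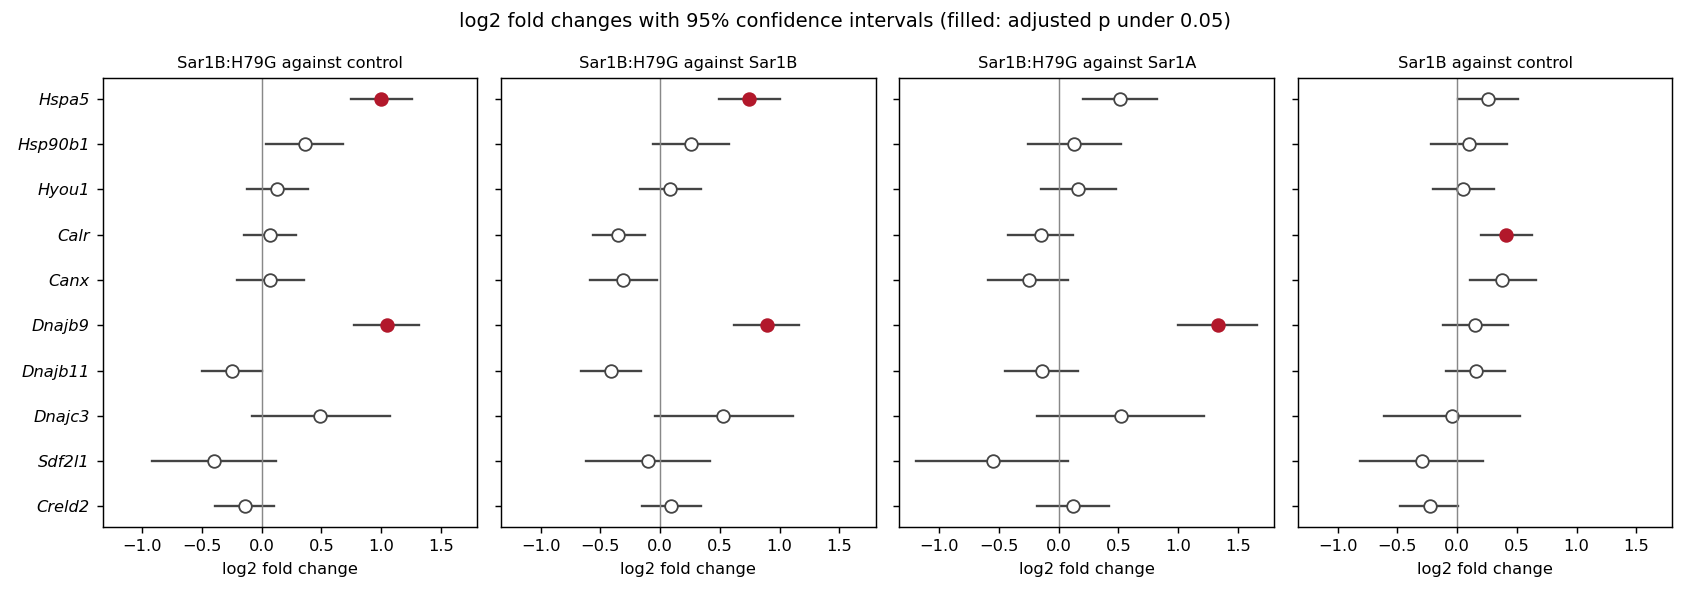
log2 fold changes of the 10 genes with 95% confidence intervals in 4 comparisons from the fit of 7 line means (red filled points, adjusted p under 0.05; open points, not called). Hspa5 and Dnajb9 are filled in Sar1B:H79G against control and against Sar1B, Dnajb9 alone against Sar1A, and Calr alone in Sar1B against control.

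Hyou1 and Canx were each read by several probe sets, and these did not move alike. Hyou1, also called GRP170, is the exchange factor that releases ADP from Hspa5 and a large Hsp70 relative itself. Its brightest probe set, 1371442_at, read 10.99 and 11.29 in the Sar1B:H79G lines, 11.04 and 11.08 in the Sar1B lines, 10.97 in the Sar1A line and 11.00 and 11.01 in the control lines. Its log2 fold change in Sar1B:H79G against control was 0.13 (standard error 0.10, 95% confidence interval -0.12 to 0.39, adjusted p = 0.39). The dimmer probe set, 1370665_at, read 9.68 and 9.70 in the Sar1B:H79G lines, 9.53 and 9.75 in the Sar1B lines, 9.62 in the Sar1A line and 9.03 and 8.87 in the control lines. Here all lines with a Sar1 insert lay above control, by 0.74 in Sar1B:H79G (standard error 0.10, adjusted p = 0.0056) and 0.69 in Sar1B (standard error 0.10, adjusted p = 0.019), both called, and by 0.67 in Sar1A (standard error 0.12, adjusted p = 0.057). Without the second control line the first of these was 0.66 and the second 0.61, neither called. Without the second Sar1B line the second was 0.58, not called. Those fits leave 1 line in a group and called a smaller share of all probe sets. Sar1B:H79G and Sar1B, which share an array series, differed by 0.05 with this probe set (standard error 0.10, 95% confidence interval -0.19 to 0.28, adjusted p = 0.88).

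The other Canx probe sets departed from the brightest, 1388442_at, in opposite directions. With 1371686_at the signal was 10.89 and 10.79 in the Sar1B:H79G lines, 11.56 and 11.30 in the Sar1B lines, 11.17 in the Sar1A line and 11.62 and 11.78 in the control lines. It was called lower in Sar1B:H79G, by -0.86 against control (standard error 0.11, adjusted p = 0.0048) and by -0.59 against Sar1B (standard error 0.11, adjusted p = 0.026). The call against Sar1B was lost when either control line, either Sar1B:H79G line or the first Sar1B line was left out. The values were then -0.64 to -0.46. Those fits leave 1 line in a group and called a smaller share of all probe sets.

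With 1371687_at the Canx signal was 11.74 and 11.32 in the Sar1B:H79G lines, 11.81 and 11.88 in the Sar1B lines, 11.87 in the Sar1A line and 11.05 and 10.77 in the control lines. This probe set was called higher against control in Sar1B:H79G (0.62, standard error 0.16, adjusted p = 0.038) and in Sar1B (0.94, standard error 0.16, adjusted p = 0.026). Both calls were lost without any 1 of the control or Sar1B lines, the first also without the first Sar1B:H79G line. Those fits leave 1 line in a group and called a smaller share of all probe sets. This probe set then had values of 0.41 to 0.76 for the first call and of 0.80 to 1.08 for the second. In Sar1A it stood at 0.97 against control (standard error 0.19, adjusted p = 0.072), and was called at this value (adjusted p = 0.046) without either Sar1B:H79G line. Sar1B:H79G against Sar1B was -0.32 (standard error 0.16, adjusted p = 0.34). A single direction for Canx against control therefore depended on the probe set, and the transcripts that each probe set reads were not examined here.

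**Figure D4:**
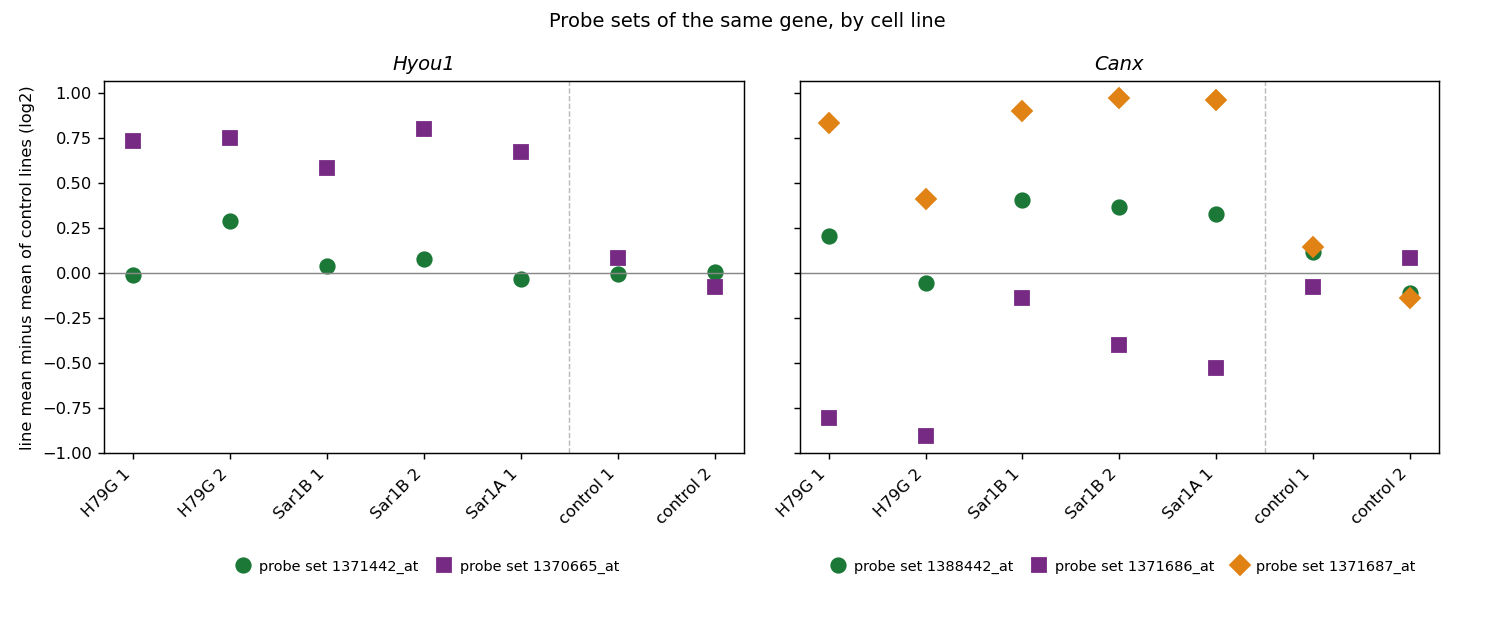
Line means of each probe set of Hyou1 and Canx minus the mean of the control lines (log2), by cell line, with the brightest probe set as green circles; H79G 1 and 2 are the Sar1B:H79G lines, and the dashed line parts the array series. The dimmer Hyou1 probe set is above control in all 5 lines with a Sar1 insert, and the Canx probe sets spread to both sides of 0.

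Across the 7 lines, the 10 genes, each read by its brightest probe set, did not share a pattern. The dimmer probe sets of Hyou1 and Canx, which moved differently, had no part in the values of this paragraph. The Pearson correlation of line means over the 45 pairs of genes had a median of -0.03 and ran from -0.86 (Canx with Creld2) to 0.83 (Hspa5 with Dnajb9), and only 2 pairs were above 0.8, the other being Hsp90b1 with Hyou1 (0.81). Calr and Canx correlated at 0.74, whereas Dnajb11 ran against Hspa5 (-0.77) and Sdf2l1 against Dnajc3 (-0.76). These values describe 7 lines that share arrays, scaling and in part their group, and they carry no test. The mean of the 10 centred profiles was 0.10 and 0.16 in the Sar1B:H79G lines, -0.05 and 0.03 in the Sar1B lines, -0.03 in the Sar1A line and -0.08 and -0.13 in the control lines. Of 9422 other genes above the median probe set, the 5 most like this mean profile were Bmp2k (r = 0.995), Skic3 (0.994), Pdcd6ip (0.993), Ogg1 (0.991) and Heatr6 (0.991), the best of many candidates over 7 points.

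Most measured genes of a list of UPR sensors and targets outside the chaperone set were called higher in the same lines. Whether the UPR itself was active was not tested. The sensor Ern1 and the listed gene Derl3 had no probe set with only 1 gene symbol and were not measured. Of 29 measured UPR sensors and targets, 17 were called higher and 1, Edem2, lower in Sar1B:H79G against control, with a median log2 fold change of 0.42, beside 13.4% higher, 10.6% lower and a median of 0.02 over all genes. Ddit3 (CHOP), a transcription factor induced through Atf4, read 12.07 and 12.36 in Sar1B:H79G lines and 9.09 and 9.26 in control lines, so that Sar1B:H79G exceeded control by 3.04 (standard error 0.24, adjusted p = 0.0015). Ppp1r15a (GADD34), which restores translation by dephosphorylating eIF2α, was 2.49 higher (adjusted p = 9e-04), as was the pseudokinase Trib3 by 2.10 (adjusted p = 0.0012). Within the array series, 12 of the 29 were called higher and 2, Edem2 and Mbtps1, lower in Sar1B:H79G against Sar1B (median 0.23), beside 4.90% and 7.18% of all genes, and 7 were called higher and 0 lower against Sar1A, beside 1.98% and 2.22%. Ddit3 was again first, at 3.01 against Sar1B (adjusted p = 0.0028) and 2.78 against Sar1A (adjusted p = 0.012). In Sar1B against control 1 of 29, Edem1, was called, and in Sar1A against control 0.

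Other folding factors of the ER, such as disulfide isomerases and glycan-processing enzymes, were called higher in 10 of 37 and lower in 0 in Sar1B:H79G against control (median 0.14), beside 13.4% and 10.6% of all genes. The first 3 by size were Lman1, a cargo receptor for ER export (1.09, adjusted p = 0.00099), P4hb, a protein disulfide isomerase (0.77, adjusted p = 0.010), and Ero1a, its oxidase (0.67, adjusted p = 0.024). Against Sar1B the counts were 3 higher and 3 lower (median 0.04), beside 4.90% and 7.18%, with Txndc12, Ero1a and Erp44 higher and Erp29, Mogs and Creld1 lower. Lman1 was called higher in Sar1B (1.12, adjusted p = 0.0066) and in Sar1A (0.98, adjusted p = 0.030) too, each against control, so that its rise was shared by all groups of one array series.

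Chaperones of the cytosol and mitochondria, for comparison, were called higher in 18 of 42 and lower in 0 in Sar1B:H79G against control (median 0.36), beside 13.4% and 10.6% of all genes. Against Sar1B 7 of 42 were called higher and 0 lower (median 0.11), beside 4.90% and 7.18%. The small heat shock protein Hspb1 rose by 2.08 (standard error 0.33, adjusted p = 0.010), Dnajb6 by 1.72 (standard error 0.11, adjusted p = 0.0011) and Hspa4l by 1.56 (standard error 0.13, adjusted p = 0.0018) against control. Dnajb6 also rose in Sar1B (1.56, adjusted p = 0.0074) and Sar1A (1.41, adjusted p = 0.033) against control, as Lman1 did. Relatives of the ER chaperones in other compartments were looked up in addition. Hspa9, the mitochondrial relative of Hspa5, was called higher in Sar1B:H79G by 0.95 against control (adjusted p = 0.0024) and 0.70 against Sar1B (adjusted p = 0.0092). Cytosolic Hspa8 and Hspa1b, also relatives of Hspa5, and Hsp90aa1, a relative of Hsp90b1, had no probe set with only 1 gene symbol and were not measured. Of the measured relatives of Hspa5 in the cytosol, Hspa1a, Hspa1l and Hspa2 were not called against control. They were at -0.19 (adjusted p = 0.085), 0.03 (adjusted p = 0.74) and -0.04 (adjusted p = 0.69). Of the cytosolic relatives of Hyou1, Hspa4l was called higher against control, as given above, and by 1.29 against Sar1B (adjusted p = 0.0056). Hsph1 was called higher by 0.75 against control (adjusted p = 0.031) and 0.79 against Sar1B (adjusted p = 0.046). Hspa4 was at -0.25 (adjusted p = 0.38) against control, not called. Of the relatives of Hsp90b1, cytosolic Hsp90ab1 was at 0.37 (adjusted p = 0.065) and mitochondrial Trap1 at -0.08 (adjusted p = 0.63) against control, neither called.

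Some hepatocyte markers fell in the same lines, and 0 of 10 were called higher and 3 lower in Sar1B:H79G against control, beside 10.6% of all genes lower, namely Apob (-1.41, adjusted p = 0.035), Hnf4a (-0.78, adjusted p = 0.0025) and Serpina1 (-0.64, adjusted p = 0.035). The summed linear signal of this list was 65800 to 67500 in the Sar1B:H79G lines, 78900 to 88200 in the Sar1B lines, 82300 in the Sar1A line and 68000 to 86100 in the control lines. Of the markers of other cell types, Csf1r (-0.57, adjusted p = 0.037) and Kdr (-0.28, adjusted p = 0.045) were called lower and 0 higher, both in lists with 0 genes above the median probe set. The part of the hepatocyte markers in the chaperone results was not tested.

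**Figure D5:**
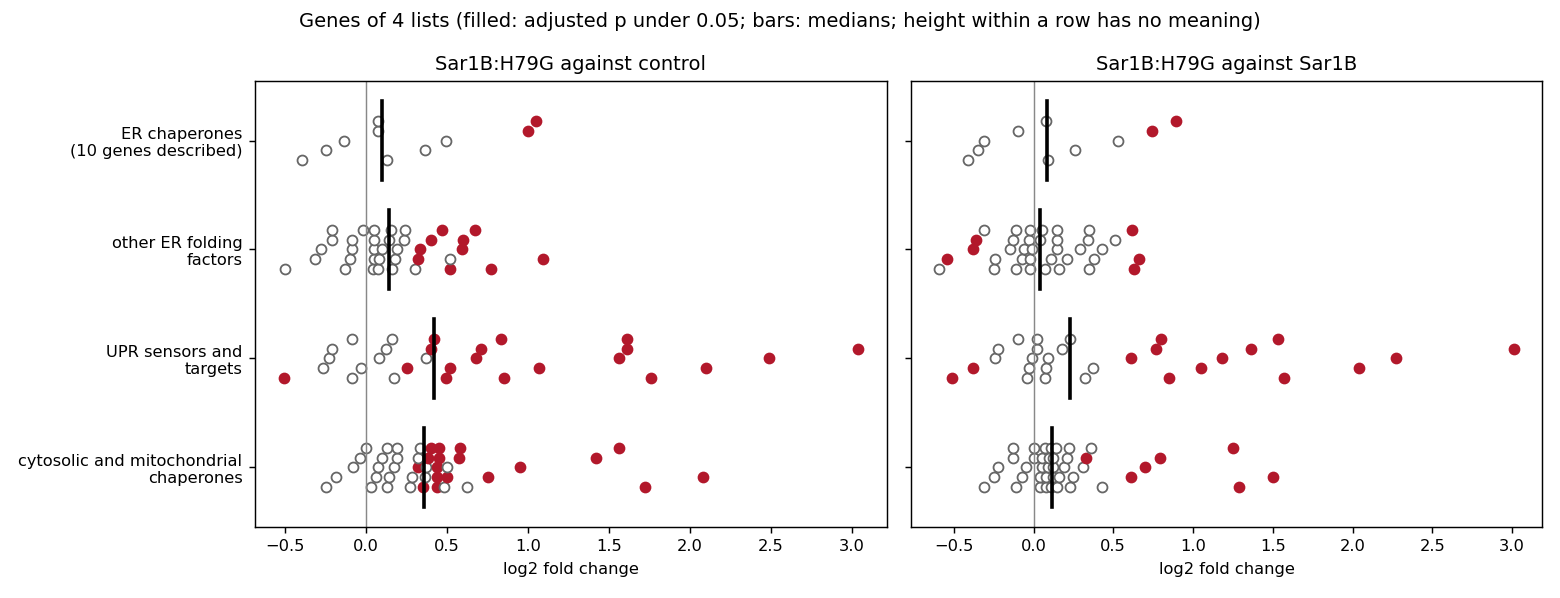
log2 fold changes of single genes in 4 lists, for Sar1B:H79G against control (left) and against Sar1B (right); red filled points were called at an adjusted p under 0.05, open points were not, and bars are medians. The 10 ER chaperones hold 2 filled points in each panel, whereas the UPR list reaches 3.04 and 3.01.

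An ERSE or ERSE-II was held in the windows by 38 of 27457 rat genes (0.138%), 8 of them the chaperones above, by 1 of 34 other ER folding factors (Ero1b), by 3 of 27 UPR genes (Xbp1, Herpud1 and Derl3) and by 0 of 39 chaperones of other compartments. Of the 28 such genes on the array, 5 were called higher and 1 lower in Sar1B:H79G against control (median 0.17), beside 13.4% and 10.6% of all genes, and 4 higher and 0 lower against Sar1B (median 0.06), beside 4.90% and 7.18%. The higher genes against control were Hspa5, Herpud1, an ER membrane protein of degradation (1.56, adjusted p = 0.0015), Zfand2a, an arsenite-inducible factor of the proteasome (2.42, adjusted p = 0.0043), Nucb1 (0.49, adjusted p = 0.034) and Foxd4 (0.32, adjusted p = 0.018), and the lower was Rnf151 (-0.53, adjusted p = 0.049). Xbp1, the transcription factor that Ern1 activates by splicing its mRNA, was at -0.09 (adjusted p = 0.73).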

How the data were processed

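The authors hybridized RNA to Affymetrix rat genome arrays and normalized the intensities by loess and MAS 5 in CARMAweb. The deposited table holds these values on a log2 scale, 1 per probe set and array, with no detection calls. Their range points to base 2, and the number of arrays limits the precision. No column was without a sample. Of 31099 probe sets, 57 array controls were left out, and 20826 of the other 31042 carried 1 gene symbol, 436 several and 9780 none. Symbols were set against a rat gene table by gene identifier for 20758 probe sets, and 0 changed.

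The methods call the arrays of a line technical replicates, so the arrays of each of 7 lines were averaged on the log2 scale. No pair of arrays held identical values. Under R 4.3.3, limma 3.58.1 fitted the line means of the 4 groups together (3 residual and 3.16 prior degrees of freedom), and p-values were Benjamini-Hochberg adjusted over 31042 probe sets and called under 0.05. The spread of the lone Sar1A line was taken from the other groups. Nothing says that the lines were cultured more than once, so p-values measure the spread between lines only. The fit was tested on simulated data.

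The 10 genes, the other lists and the marker genes were chosen with earlier results of these data known. Named genes were the 10 with all their probe sets, in each other list the 3 called genes with the largest change in Sar1B:H79G against control, the 5 genes most correlated with the mean of the 10, and Sar1a and Sar1b. Edem2, Mbtps1, Edem1, Txndc12, Erp44, Erp29, Mogs, Creld1, Hspa9, Hspa1a, Hspa1l, Hspa2, Hsph1, Hspa4, Hsp90ab1, Trap1 and the genes named for an ERSE were added after their values were seen. Alternatives were arrays as replicates, quantile normalization, a shift to the same median, bright probe sets only, a random effect of the line (statmod 1.5.0), a replicate block of line numbers, only the groups compared, a trended and robust eBayes, leaving out 1 line of Sar1B:H79G, Sar1B or control, and averaging all probe sets per gene.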

Additional observations from a re-analysis of the deposited data

Results flagged for a closer look

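Among the 52 sets of arrays that were screened, 13 probe sets in each of 4 groups, 4 held an array far from the others of its group. Far was judged against the range of the group, and the gaps themselves were small. For arrays of 1 source chance alone gives about 1 in 20. The Sar1B:H79G, Sar1B and control sets each pool 2 lines, so that this rate need not hold for them. The first Sar1A array read 12.94 for Hsp90b1, with the next at 13.06, and 11.04 for Creld2, where the next was 10.88. The fourth Sar1A array read 9.92 for Dnajc3, with the next at 9.80. The second array of the second Sar1B line read 10.86 for Dnajb11, with the next at 11.08. Arrays of a line are technical replicates, and each such array is 1 of the 4 averaged into its line mean.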

How the results depend on the processing

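Hspa5 and Dnajb9 were called higher in Sar1B:H79G against control and against Sar1B under all 15 alternatives, with log2 fold changes of 0.69 to 1.11 and 0.99 to 1.08 against control and of 0.64 to 0.84 and 0.73 to 1.05 against Sar1B. With arrays as replicates, 6 genes were called in Sar1B:H79G against control, 7 against Sar1B, 5 against Sar1A, and 5 in each of the other 3 comparisons, beside 52.3%, 31.8% and 23.2% of all probe sets for Sar1B:H79G, 42.2% for Sar1B and 36.2% for Sar1A against control, and 10.3% for Sar1A against Sar1B. With the line as a random block the counts were 6, 7 and 4 for Sar1B:H79G, 3 for Sar1B against control and 3 for Sar1A against control, beside 38%, 22.2%, 14.6%, 26.4% and 19.3%. These fits count arrays of a line, which are technical replicates, toward the precision. With only the groups compared, 0 were called in Sar1B:H79G against Sar1A, where 0% of all probe sets were called. In Sar1A against control 1, Hspa5, was called there, beside 7.51%. Calr in Sar1B against control was the call lost most often. In that comparison 0 were called after quantile normalization, a shift to the same median or a limit to bright probe sets. The same held for the trend and robust options, the replicate block and the mean of all probe sets. Beside these, 5.29% (mean of all probe sets) to 11.3% (trend and robust options) of all that was tested was called. Calr was at 0.21 after quantile normalization and at 0.38 to 0.41 in the others. With 1 line left out, the count ran from 0 to 1 both there and in Sar1B:H79G against Sar1A. Over all probe sets, the share of calls that were higher against control was 75.8% for Sar1B and 84.2% for Sar1A, beside 57.8% and 71.9% after quantile normalization and 65.3% and 81.8% after the shift to the same median. In Sar1B:H79G against control, 22.3% of all probe sets were called with all lines, and 5.52% (without the second control line) to 18.9% with 1 line left out. The cause was not tested.

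The line numbers mark lines and do not pair them, and for lines that share a number the deviations from the group means correlated at 0.075 (Sar1B:H79G and Sar1B), 0.192 (Sar1B:H79G and control) and 0.007 (Sar1B and control). With the line number as a replicate block, 3 genes were called in Sar1B:H79G against control and 3 against Sar1B, beside 22.6% and 8.45% of all probe sets, the added gene being Dnajc3 (0.49, adjusted p = 0.030, and 0.53, adjusted p = 0.043).

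Quantile normalization brought Calr to -0.41 (adjusted p = 0.045) in Sar1B:H79G against Sar1B and Dnajb11 to -0.37 (adjusted p = 0.043) against control, both called lower. Signs changed in 27 of 900 recomputed values of the 10 genes, and 0 of the 27 were called. After quantile normalization Calr was at -0.20 and Canx at -0.17 in Sar1B:H79G against control, Hsp90b1 at -0.11 and Hyou1 at -0.07 in Sar1B against control, Hsp90b1 and Calr each at -0.05 and Sdf2l1 at -0.02 in Sar1A against control, and Hyou1 1370665_at at 0.01 in Sar1A against Sar1B. The mean of all probe sets gave -0.06 for Canx in Sar1B:H79G against control, 0.44 for Hyou1 there (adjusted p = 0.019, called) and 0.32 for Hyou1 in Sar1A against control. The replicate block gave 0.03 for Hyou1 in Sar1A against control and, in Sar1A against Sar1B, -0.21 for Dnajc3, 0.04 for Creld2 and -0.08 for Canx 1371687_at. With 1 line left out, values ran in Sar1B:H79G against control from -0.02 to 0.28 for Hyou1, -0.03 to 0.17 for Calr and -0.06 to 0.20 for Canx, and against Sar1B from -0.07 to 0.23 for Hyou1, -0.43 to 0.22 for Sdf2l1, -0.03 to 0.21 for Creld2 and -0.06 to 0.16 for Hyou1 1370665_at. Against Sar1A, Hsp90b1 ran from -0.07 to 0.33. In Sar1B against control they ran from -0.01 to 0.32 for Dnajb9, -0.33 to 0.25 for Dnajc3 and -0.62 to 0.03 for Sdf2l1, and in Sar1A against control from -0.15 to 0.09 for Dnajc3. In Sar1A against Sar1B they ran from -0.28 to 0.30 for Dnajc3, -0.11 to 0.04 for Creld2, -0.13 to 0.09 for Hyou1 1370665_at and -0.01 to 0.06 for Canx 1371687_at. Files without detection calls give no background to set these signals against.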
